A study of Mus musculus with 4 samples.

Results

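The CC chemokines described here are 9 genes of inflammatory ligands, Ccl2, Ccl3, Ccl4, Ccl5, Ccl6, Ccl7, Ccl8, Ccl9 and Ccl12. They were chosen by name, with earlier results of these data known, out of the 18194 genes that could be read from the arrays. Every probe set that names 1 of these genes and no other was taken, which gave 11 of the 34958 probe sets with a single gene. Ccl6 and Ccl9 have 2 such probe sets each and the other 7 genes have 1. The question was how the transcripts of these ligands differed between the injured and the uninjured side of the cortex 24 h after permanent MCAO, and between P4htm-/- and WT mice on each side.

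CC chemokines are small secreted proteins that bind G protein-coupled receptors on leukocytes and draw them along a concentration gradient into inflamed tissue. In the ischemic brain, microglia, astrocytes, endothelial cells and arriving leukocytes are known sources, and monocytes that carry the receptor Ccr2 are a known target. The ligands are redundant, since most bind more than a single receptor and most of the receptors bind several ligands.

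The 4 conditions were measured with 1 Affymetrix Mouse Genome 430 2.0 array each. They were the ipsilateral (injured, left) and the contralateral (uninjured, right) cortex of P4htm-/- mice, which lack the transmembrane prolyl 4-hydroxylase P4H-TM, and the same pair of sides in WT mice. All mice were C57BL/6J in the labels (the methods give a backcross of the P4htm-/- line to C57BL/6), 3 months old and killed 24 h after permanent occlusion of the left middle cerebral artery, and the RNA of 4 mice was pooled for each array. Both sides came from operated mice, so no sham-operated or untreated cortex stands in the comparison, and according to the study's methods the mice were perfused with saline before the whole cortex of each side was dissected.

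With 1 array per condition there is no replicate check and no p-value, and the pooling hides the spread between mice. The values are log2 intensities made with RMA, which corrects background and brings the arrays to a common distribution. The array medians lay between 5.53 and 5.55, and 59.0% to 59.7% of the probe sets were above background. The limit for background was 4.79, below which lay 95% of the values of 81 probe sets of receptors for bitter taste, odours and pheromones, genes that cortex is not known to use. Between 2 arrays the same receptor probe sets differed with an SD of 0.18 to 0.21, which measures technical scatter only. A gene is called higher or lower where at least 1 of the compared arrays was above the limit and the values differed by at least 1.5-fold, or 0.585 on the log2 scale. P4htm, the deleted gene, read 8.23 on the P4htm-/- ipsilateral and 8.27 on the P4htm-/- contralateral array, against 10.02 on the WT ipsilateral and 10.03 on the WT contralateral array. Whether its probe sets lie in the deleted part was not determined.

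The genes lie on chromosome 11 in 2 groups of neighbours. Ccl2, Ccl7, Ccl12 and Ccl8 share the first with Ccl11 and Ccl1, and Ccl5, Ccl9, Ccl6, Ccl3 and Ccl4 follow each other in the second. Promoter sequence from RefSeq (build GRCm38.p6) was at hand for 5 of the 9 genes, Ccl12, Ccl8, Ccl9, Ccl6 and Ccl3. The last 120 bases before the start site are printed for the 4 genes whose P4htm-/- ipsilateral value was lower than the WT one past 1.5-fold, 5′ to 3′ on the strand of the gene, with the motifs that were searched in capitals. Ccl12 is at chr11:82101725-82101844 on the plus strand, Ccl8 at chr11:82115065-82115184 on the plus strand, Ccl9 at chr11:83578637-83578756 on the minus strand and Ccl6 at chr11:83593088-83593207 on the minus strand.
Ccl12: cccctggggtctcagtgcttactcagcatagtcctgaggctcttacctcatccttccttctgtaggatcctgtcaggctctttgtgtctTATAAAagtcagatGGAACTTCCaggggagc
Ccl8: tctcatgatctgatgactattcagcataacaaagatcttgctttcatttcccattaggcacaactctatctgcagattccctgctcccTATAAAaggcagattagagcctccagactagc
Ccl9: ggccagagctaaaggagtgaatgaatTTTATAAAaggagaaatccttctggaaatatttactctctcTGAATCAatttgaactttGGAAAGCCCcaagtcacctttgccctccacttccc
Ccl6: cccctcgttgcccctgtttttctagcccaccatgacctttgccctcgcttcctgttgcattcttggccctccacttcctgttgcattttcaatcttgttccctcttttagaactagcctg

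The capitals are matches on either strand to TATAAA (the TATA box), GGNNNTTCC (a loose form of the NF-kappaB site) and TGANTCA (AP-1). Ccl12 has a TATA box at -31 to -26 and an NF-kappaB match at -17 to -9 relative to the start. Ccl8 has a TATA box at -32 to -27 and no other match. In Ccl9 the TATA box on the plus strand, at -92 to -87, overlaps one on the minus strand, and an AP-1 match at -53 to -47 and an NF-kappaB match at -35 to -27 follow. The Ccl6 window has no match. Over the 250 bases searched per gene, the TATA box was found in 3 of the 5 promoters, against 12.4% of 32851 promoters in the table, the NF-kappaB motif in 2 of 5 against 15.7%, and the AP-1 motif in 1 of 5 against 6.75%. A C/EBP motif, TTGCNNAA, was in 0 of 5 (9.56% of all promoters), and an interferon-response motif, GAAANNGAA, was in Ccl3 alone (7.13%). These are matches of letters and not measured binding sites.

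Among the monocyte chemoattractants, the MCP group, Ccl12 had the largest difference between the sides. Ccl12, or MCP-5, a mouse ligand of Ccr2 that attracts monocytes, read 8.99 on the P4htm-/- ipsilateral and 5.23 on the P4htm-/- contralateral array. In WT it read 9.66 ipsilaterally and 5.15 contralaterally. The ipsilateral side was thus higher by 3.76 (13.5-fold) in P4htm-/- and by 4.51 (22.8-fold) in WT, and in both genotypes only 1 gene of all those tested had a larger difference. Both contralateral values were near the background limit and 0.08 apart, whereas the P4htm-/- ipsilateral value was 0.67 below the WT one (1.59-fold).

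Ccl2, or MCP-1, the best known Ccr2 ligand, read 5.96 in P4htm-/- ipsilateral and 4.58 in P4htm-/- contralateral cortex, against 6.12 and 4.77 on the same sides in WT. Neither contralateral array was above background, so the ipsilateral side was at least 2.25-fold higher in P4htm-/- and at least 2.51-fold higher in WT. The genotypes differed by -0.16 ipsilaterally, which is less than 1 SD of the receptor scatter. Ccl7, or MCP-3, which binds Ccr2 as well as other CC receptors, was not above background on any array. It read 4.54 and 3.81 in P4htm-/- ipsilateral and contralateral cortex and 4.64 and 3.71 in WT, and no fold is given for it.

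Ccl8, or MCP-2, is a Ccr2 ligand in human and is known as a Ccr8 ligand in mouse. It read 5.66 in P4htm-/- ipsilateral and 5.21 in P4htm-/- contralateral cortex, and 6.33 in WT ipsilateral and 5.57 in WT contralateral cortex. The side difference was 0.76 in WT (1.69-fold), past the threshold, and 0.45 in P4htm-/- (1.37-fold), short of it. The P4htm-/- ipsilateral value lay only 0.09 above the WT contralateral one, so that the WT ipsilateral array stood apart from the other 3.

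Ccl3 and Ccl4, or MIP-1alpha and MIP-1beta, are chemoattractants of monocytes and T cells, and Ccl3 is a ligand of Ccr1. Ccl3 read 6.24 in P4htm-/- ipsilateral and 4.47 in P4htm-/- contralateral cortex, against 6.70 and 4.73 in WT. Its contralateral values were below background, and the ipsilateral side was at least 2.73-fold higher in P4htm-/- and at least 3.76-fold higher in WT. Ccl4 read 6.77 in P4htm-/- ipsilateral and 5.18 in P4htm-/- contralateral cortex, and 6.75 and 5.82 in WT. The 2 ipsilateral values of Ccl4 were 0.02 apart, and the genotypes differed on the contralateral side, by -0.64 (1.56-fold). Its side difference was therefore the larger one in P4htm-/-, 1.59 (3.01-fold) against 0.93 (1.91-fold) in WT.

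Ccl5, or RANTES, which attracts T cells and monocytes, had the smallest range over the arrays among the 8 detected ligands. It read 5.62 in P4htm-/- ipsilateral and 4.78 in P4htm-/- contralateral cortex, with that contralateral value just under background, and 5.47 and 5.21 in WT. It was at least 1.78-fold higher on the ipsilateral side in P4htm-/- and 1.2-fold higher in WT, which did not pass. As for Ccl4, the genotypes lay closer on the ipsilateral side (0.15) than on the contralateral side (-0.43).

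Ccl6 and Ccl9, or C10 and MIP-1gamma, are rodent ligands of Ccr1. Ccl9 read 7.06 in P4htm-/- ipsilateral and 4.87 in P4htm-/- contralateral cortex, against 7.82 and 5.26 in WT, and was higher on the ipsilateral side by 2.19 (4.56-fold) in P4htm-/- and by 2.56 (5.9-fold) in WT. On this probe set it was lower in P4htm-/- on both sides, by a log2 difference of -0.76 ipsilaterally and -0.39 contralaterally. With its probe sets averaged, the contralateral difference was -0.03. The second probe set of Ccl9 was above background on the WT ipsilateral array alone, where it read 5.61. It read 4.59 and 4.16 in P4htm-/- ipsilateral and contralateral cortex and 3.83 in WT contralateral cortex, which makes it at least 1.77-fold higher ipsilaterally in WT, and at least 1.77-fold lower in P4htm-/- relative to WT on the ipsilateral side.

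Ccl6 read 6.79 in P4htm-/- ipsilateral and 5.96 in P4htm-/- contralateral cortex, and 7.42 and 5.85 in WT. Its side difference was 0.83 (1.78-fold) in P4htm-/- and 1.57 (2.97-fold) in WT. The contralateral values were 0.11 apart, and ipsilaterally P4htm-/- was lower by a log2 difference of -0.63 (1.55-fold). The second probe set of Ccl6 was not above background on any array and differed by 0.18 between the ipsilateral arrays, in the other direction. With the 2 probe sets averaged, the difference was -0.22 and no longer passed.

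**Figure D1:**
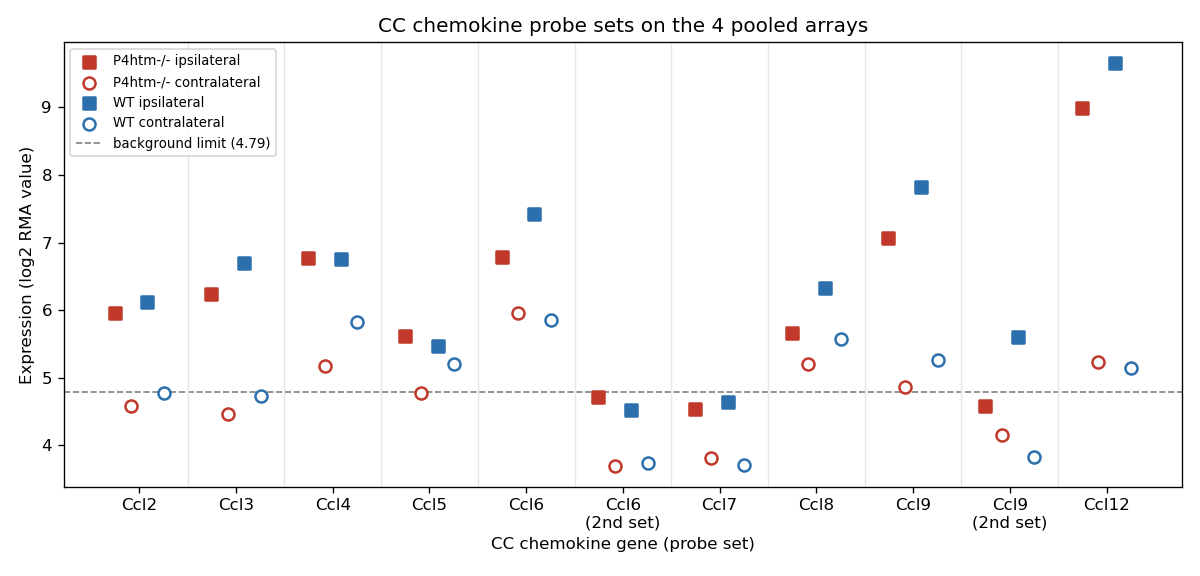
Log2 RMA value (vertical axis) of each of the 11 CC chemokine probe sets (horizontal axis) on the 4 arrays, each of 1 RNA pool of 4 mice. Squares are ipsilateral and circles contralateral cortex, red is P4htm-/- and blue WT, and a dashed line marks the limit of background, 4.79. The squares lie above the circles of the same colour for all 11 probe sets, and the blue square of Ccl12, at 9.66, is the highest value.

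For the comparison of the sides, the difference over all detected genes was above 0 for 5543 of 13295 in P4htm-/- and 5980 of 13304 in WT. It was above 0 for all 9 ligands in both genotypes, counting Ccl7, which was below background. Past 1.5-fold there were 7 in P4htm-/-, where 1.53% of the 13295 detected genes were called higher, and 7 in WT, where 2.41% of 13304 were. The genes short of it were Ccl8 in P4htm-/- and Ccl5 in WT, and Ccl7 was not detected. Some passed the filter only through the array on which they were high, namely Ccl2, Ccl3 and Ccl5 in P4htm-/- and Ccl2 and Ccl3 in WT. Of those above background on both sides, 4 of 5 were past 1.5-fold in P4htm-/- (Ccl4, Ccl6, Ccl9 and Ccl12) and 5 of 6 in WT (the same 4 and Ccl8). Under that filter 161 of all genes were called higher in P4htm-/- and 261 in WT. The number of all genes above background on both sides, the base of these counts, was not taken. It can be no more than the 13087 genes above background on the P4htm-/- contralateral array and the 13005 on the WT contralateral array. The median of the log2 difference over the 9 genes was 1.38 in P4htm-/- and 1.35 in WT, against -0.02 over all detected genes in both.

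**Figure D2:**
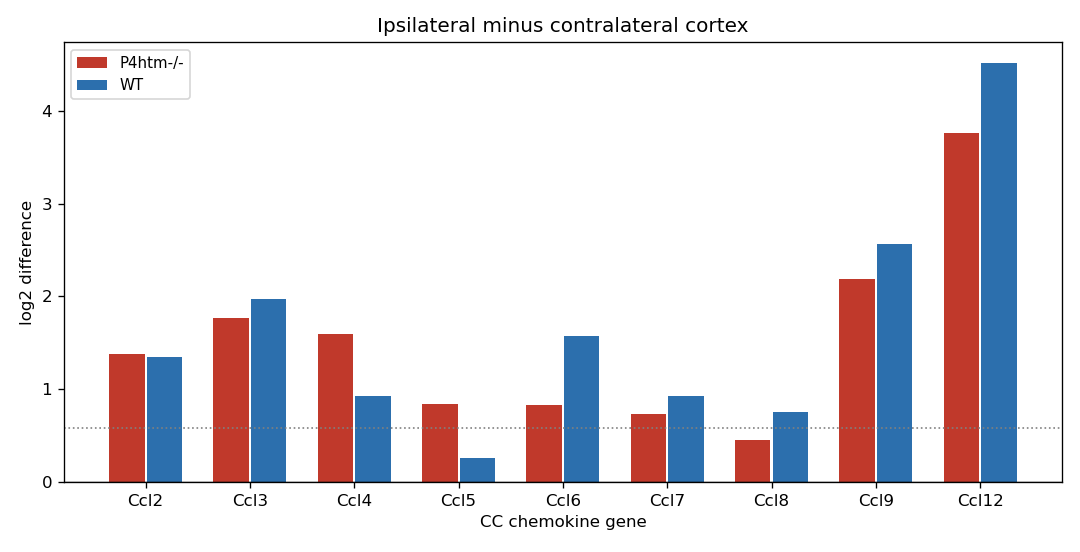
Log2 difference between ipsilateral and contralateral cortex (vertical axis) for the 9 CC chemokine genes, with P4htm-/- in red and WT in blue and the dotted line at 0.585 (1.5-fold). Each bar is a difference between 2 arrays and has no error. The red bar is clearly the shorter one for Ccl6 and Ccl12 and the taller one for Ccl4 and Ccl5, and Ccl7 was below background on all arrays.

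For the comparison of the genotypes in the ipsilateral cortex, Ccl6, Ccl8, Ccl9 and Ccl12 were lower in P4htm-/- past 1.5-fold. They were 4 of the 8 detected ligands, where 0.577% of 13346 genes were called lower, and 0 were higher, where 0.0899% of all genes were. All 4 were above background on both arrays, and their folds lay between 1.55 and 1.69. Counted from the lowest of the 13346 differences, Ccl9 was at place 11, Ccl8 and Ccl12 shared place 31 and Ccl6 at place 50. Ccl3 was at -0.46 and did not pass, and Ccl2, Ccl4 and Ccl5 lay within 0.16 of WT in either direction. The median over the 9 genes was -0.46, against -0.01 over all genes, and it was -0.22 with the probe sets of each gene averaged.

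On the contralateral side 1 of 6 detected ligands, Ccl4, was lower in P4htm-/- past 1.5-fold, where 0.159% of 13195 genes were lower, and 0 ligands were higher, where 0.227% of genes were. Ccl5 (-0.43), Ccl9 (-0.39) and Ccl8 (-0.36) were also below WT and did not pass. The second probe set of Ccl9, under background on both contralateral arrays, differed by 0.33 in the other direction. With its probe sets averaged, Ccl9 was at -0.03. Ccl2, Ccl3 and Ccl7 were not above background on either contralateral array. The median over the 9 genes was -0.26, against -0.01 over all genes, but it became 0.00 when values under the limit were set to it.

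The difference between the genotypes in their side difference uses all 4 arrays and shares them with the comparisons above. It was below 0 past 1.5-fold for Ccl12 (-0.75) and Ccl6 (-0.74), 2 of 8 ligands, where 1.35% of 13435 genes were, and it was above 0 past it for Ccl4 (0.66), 1 of 8, where 0.528% were. Ccl5 was at 0.58, just short of the threshold, and Ccl2 was at 0.03. With the probe sets of each gene averaged, Ccl6 was at -0.26 and no longer passed, and Ccl9 was at -0.86 and did. The other ligands lay between -0.37 (Ccl9) and -0.20 (Ccl3 and Ccl7). The SD of the receptor probe sets in this comparison was 0.29.

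With the probe set of highest mean standing for each gene, the order of the arrays fell into 3 patterns. Ccl2, Ccl3, Ccl8 and Ccl9 ran from WT ipsilateral, the highest, through P4htm-/- ipsilateral and WT contralateral to P4htm-/- contralateral, the lowest. Ccl6, Ccl7 and Ccl12 were also highest in WT ipsilateral cortex but lowest in WT contralateral cortex. Ccl4 and Ccl5 were highest in P4htm-/- ipsilateral and lowest in P4htm-/- contralateral cortex. Some neighbours in these orders were no more than 0.21 apart, the largest SD of the receptor scatter. These were the ipsilateral arrays for Ccl2, Ccl4, Ccl5 and Ccl7, the contralateral arrays for Ccl2, Ccl6, Ccl7 and Ccl12, and P4htm-/- ipsilateral with WT contralateral cortex for Ccl8. The second probe set of Ccl9 had the order of Ccl12, and that of Ccl6 had the order of Ccl4. The former was above background on the WT ipsilateral array alone and the latter on none.

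**Figure D3:**
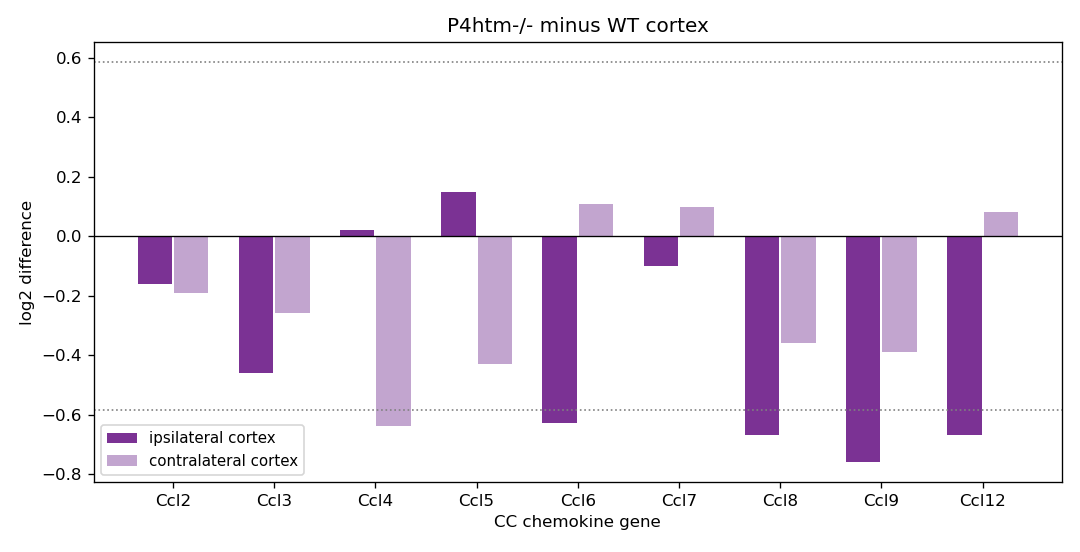
Log2 difference between P4htm-/- and WT cortex (vertical axis) for the 9 CC chemokine genes, dark bars for the ipsilateral and pale bars for the contralateral side, with dotted lines at 0.585 on either side of 0. Each bar is a difference between 2 arrays without error. The dark bars of Ccl6, Ccl8, Ccl9 and Ccl12 reach past the lower line, as does the pale bar of Ccl4, and no bar reaches the upper line.

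Other CC ligands did not differ past 1.5-fold. The 9 ligands and this list were separated with earlier results of these data known, so no conclusion is drawn from the contrast between them. Of 9 that were measured, 5 were detected, and 0 passed in any of the comparisons. They were Ccl17 (a Ccr4 ligand), Ccl24 (eotaxin-2), Ccl25 (known from thymus and gut) and the Ccr10 ligands Ccl27a and Ccl28. Their side differences ran from -0.35 to 0.14 in P4htm-/- and from 0.00 to 0.34 in WT. In the ipsilateral cortex all 5 lay below WT without passing, from -0.47 for Ccl28 (6.01 in P4htm-/- and 6.48 in WT) to -0.12 for Ccl17 (6.19 in P4htm-/- and 6.31 in WT). Ccl11 and Ccl1, which lie in the same row of genes as Ccl12 and Ccl8, were below background on all arrays.

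Of the receptors, 10 CC receptors were measured and 2 were detected, Ccr6 and Ccr10, neither past 1.5-fold. Ccr1 and Ccr2, named here for their ligands after their values were seen, were below background on all 4 arrays. Ccr1 read 4.45 in P4htm-/- ipsilateral, 3.77 in P4htm-/- contralateral, 4.77 in WT ipsilateral and 3.81 in WT contralateral cortex. Ccr2 read 4.08, 4.27, 3.90 and 3.86 in the same order. The 4 atypical receptors, which bind chemokines without the usual signal, were all detected and 0 passed. They were Ackr1, a chemokine receptor of venules and red cells, Ackr2, a scavenger of inflammatory CC ligands, Ackr4 and Ccrl2.

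Among cytokines and regulators that are known to act upstream of CC chemokines, 18 of 20 were measured. In P4htm-/- 2 of 14 detected genes were higher on the ipsilateral side, where 1.53% of all detected genes were. In WT 5 of 15 were, where 2.41% of all were. Stat3, the transcription factor downstream of Il6, passed in both. It read 9.30 in P4htm-/- ipsilateral and 8.59 in P4htm-/- contralateral cortex, against 9.24 and 8.46 in WT. Cebpb, a factor of the C/EBP family, was higher by 0.73 in P4htm-/- and by 0.47 in WT, which did not pass. Myd88, the adaptor of Toll-like and interleukin-1 receptors, was higher by 0.77 in WT, and its 0.26 in P4htm-/- did not pass.

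Relb, a subunit of NF-kappaB, and Irf8, a factor of myeloid cells, were both higher by 0.59 in WT, and read 0.24 and 0.49 in P4htm-/-, under the threshold. Il6 was above background only on the WT ipsilateral array (4.96), where it was at least 1.13-fold higher than in contralateral cortex. Il6 thus counts among the 5 in WT with a bound short of 1.5-fold. In P4htm-/- it read 4.77 ipsilaterally and 3.67 contralaterally. Between the genotypes 0 of these genes passed on either side, and Tnf was below background on all arrays.

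**Figure D4:**
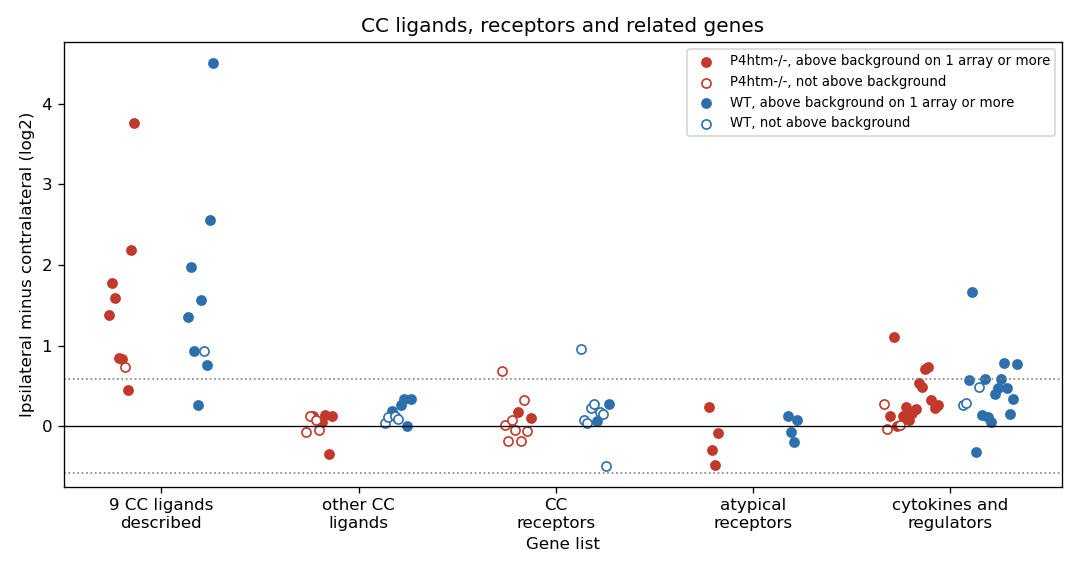
Log2 difference between ipsilateral and contralateral cortex (vertical axis) for each measured gene of 5 lists (horizontal axis), P4htm-/- in red at the left and WT in blue at the right of each list. Filled points were above background on at least 1 of the 4 arrays, open points on none, and dotted lines mark 0.585 on either side of 0. The 9 CC ligands reach 4.51, whereas the filled points of the other CC ligands and of both receptor lists stay between the lines. The lists were drawn up with earlier results of these data known.

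Whole cortex was pooled, and in such samples fewer cells of a type and less RNA per cell cannot be told apart. Markers of the cell types that make or follow these ligands were therefore read on the same arrays. In ipsilateral cortex the median difference between P4htm-/- and WT was -0.07 for microglia (0 of 19 detected genes past 1.5-fold), -0.03 for monocytes and macrophages (0 of 14), -0.08 for reactive astrocytes (0 of 17) and 0.16 for neutrophils (1 of 9, Ngp, at least 1.08-fold higher). The median was -0.105 for endothelial cells (0 of 10) and -0.085 for lymphocytes (0 of 4). Over all detected genes, 0.0899% were called higher and 0.577% lower in this comparison. Single markers spread around these medians. The differences ran from -0.56 (Tyrobp) to 0.19 (Itgam) for microglia. For detected genes of monocytes and macrophages they ran from -0.38 (Pf4) to 0.33 (Ms4a4c). The summed linear signal of the microglial list was 12636 in P4htm-/- ipsilateral, 11046 in P4htm-/- contralateral, 13539 in WT ipsilateral and 11636 in WT contralateral cortex. That of the monocyte and macrophage list was 2088, 1288, 2091 and 1259 in the same order, and 4 of its 18 measured genes, Ccr2, Plac8, F10 and Chil3, were below background throughout. The 9 CC ligands summed to 1123, 290, 1637 and 339. The largest single term of the ipsilateral ligand sums was Ccl12 (8.99 in P4htm-/- and 9.66 in WT). In the monocyte and macrophage sums it was Fn1 (9.26 and 9.21 on the same arrays).

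Of the choroid plexus markers, 4 of 11 detected were higher past 1.5-fold ipsilaterally in P4htm-/- and 6 of 12 in WT. Over all detected genes these shares were 1.53% and 2.41%. In ipsilateral cortex, where 0.577% of all genes were lower in P4htm-/-, 2 of these 12 markers were (median -0.27, 0 higher). Their summed signal was 13396 in P4htm-/- ipsilateral and 1159 in P4htm-/- contralateral cortex, against 18219 in WT ipsilateral and 1057 in WT contralateral cortex, and 11, 8, 12 and 9 of the 14 measured genes were above background. Most of the ipsilateral sums came from Ttr, which read 13.62 in P4htm-/- and 14.06 in WT ipsilateral cortex and did not pass between the genotypes (-0.44). The 2 that passed were Ecrg4 and Calml4. In ipsilateral cortex Ecrg4 was lower in P4htm-/- by a log2 difference of -1.16 (7.22 in P4htm-/- and 8.38 in WT) and Calml4 by -1.67 (4.82 in P4htm-/- and 6.49 in WT). Of the reactive astrocyte markers, 16 of 17 detected were higher past 1.5-fold ipsilaterally in each genotype, again against 1.53% and 2.41% of all genes. These markers summed to 6895 in P4htm-/- and 7474 in WT ipsilateral cortex. The part of any of these cell types in the differences of the CC chemokines was not tested.

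The genes whose pattern over the 4 arrays was most like that of each ligand were found as the 3 nearest by Euclidean distance between values centred on their mean. For Ccl2 they were Ctsc (cathepsin C), Adamts1 (a secreted metalloprotease) and Ly86 (a partner of a Toll-like receptor homologue of B cells and macrophages), at distances of 0.06 to 0.12. Ccl3 lay nearest to Socs3, a feedback inhibitor of cytokine signals, Tgfbi and Il11, at 0.26 to 0.28. Ccl4 lay nearest to Tlr2, the receptor for bacterial lipoproteins, at 0.19. Tlr2 read 6.11 in P4htm-/- ipsilateral and 4.70 in P4htm-/- contralateral cortex, the latter under background, against 6.03 and 5.29 in WT. Procr and Hspb6 followed.

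Ccl5 was followed by Ttc39a, Adcy4 and Mamdc2 (0.09 to 0.11), Ccl6 by Dpm3, Thbs1 and Pycard, the adaptor of inflammasomes (0.08 to 0.10), and Ccl8 by H2-Ab1, a chain of MHC class II, Itga7 and S100a16 (0.17 to 0.19). H2-Ab1 read 5.58 in P4htm-/- ipsilateral and 5.30 in P4htm-/- contralateral cortex, and 6.21 and 5.46 in WT. The 2 ligands with the largest side differences lay farther from their nearest genes. The distance grows with the size of the differences as well as with their shape, so it cannot say whether a gene of like shape existed. Ccl9 lay 0.39 to 0.48 from Il11, Cd44 and A2m, and Ccl12 lay 0.79 to 0.90 from Ptx3, Ttr, a choroid plexus gene, and Timp1. With 4 arrays such distances only describe the values, in size and shape together. Several of these nearest genes had values under background on some arrays. Thbs1 was above it on the WT ipsilateral array alone, and both contralateral values of Il11 were under it.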

How the data were processed

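The RNA of the ipsilateral and contralateral cortex, taken 24 h after permanent MCAO, was pooled from 4 mice per genotype and side and hybridized to 1 array per pool. The authors deposited 1 log2 value per probe set and array, made with RMA according to the submitters' processing notes. For RMA, a version is not given in the sources used here. A log base of 2 was inferred, since values ranged between 2.51 and 14.9, and values carry 2 decimals. RMA would remove a shift common to a whole array. The number of arrays limits the precision, and no test was possible.

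Of 45101 probe sets, 34958 named 1 gene, 932 several and 9211 none in the annotation table used. The several-gene sets were left out, and 0 of them held a CC chemokine studied here. Symbols were updated by Entrez gene ID for 34754 probe sets. Where a gene had several probe sets, the one with the highest mean stood for it. This gave 18194 genes, 13435 of them above background on at least 1 array. Folds against a value under background were computed from the limit and are given as bounds. Summed signals add 2 to the power of each log2 value over the measured genes of a list. Motifs were searched on both strands in the 250 bases before each start site in the RefSeq table.

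The genes and lists were chosen with earlier results of these data known. Named genes were the 9 ligands, each detected related ligand and receptor, up to 6 regulators past 1.5-fold with the largest side difference, the 3 nearest genes of each detected ligand, P4htm, and markers beside a result. Ccl1, Ccl11, Ccr1, Ccr2 and Tnf were added with their values known. The alternatives were other choices of probe set, detection and threshold, median centring and cyclic loess. The counting step was checked on simulated data. The software was Python 3.11.15 (numpy 2.4.6, pandas 2.3.3, matplotlib 3.10.9) and R 4.3.3, whose package limma 3.58.1 gave the cyclic loess.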

Additional observations from a re-analysis of the deposited data

Results flagged for a closer look

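In 4 of the 8 detected CC ligands the difference between P4htm-/- and WT had opposite signs on the 2 sides of the cortex. The ipsilateral difference minus the contralateral one was 0.66 for Ccl4 and 0.58 for Ccl5, which were above WT by 0.02 and 0.15 in ipsilateral cortex and differed by -0.64 and -0.43 in contralateral cortex. It was -0.74 for Ccl6 and -0.75 for Ccl12, with -0.63 and -0.67 in ipsilateral and 0.11 and 0.08 in contralateral cortex. In each of these ligands, 1 of the 2 signs rests on a difference within 1 SD of the receptor scatter. That SD was 0.19 ipsilaterally, against 0.02 for Ccl4 and 0.15 for Ccl5, and 0.18 contralaterally, against 0.11 for Ccl6 and 0.08 for Ccl12. The second probe set of Ccl6, below background, had the signs the other way round (0.18 and -0.05). The share of all genes with opposite signs was not counted. With 1 array per condition these differences between the sides were not tested.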

How the results depend on the processing

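There is no p-value and no replicate to leave out. No paired analysis was possible because each condition has 1 array. The sign of 1 value for a single ligand turned, the difference between the genotypes in the side difference of Ccl2, which was -0.16 with values raised to background and 0.03 with the values as deposited, short of the threshold in both. Of 225 values for single ligands under another probe set choice, another scaling or values raised to background, 212 moved by less than the receptor scatter and 13 by more. That tally does not measure stability, because many of the values could not move. The 7 ligands with 1 probe set do not change with that choice, and the probe set of largest range was the one already used for every ligand. Of the 13, 7 came from averaging the probe sets of Ccl6 and Ccl9, and 6 from values raised to background.

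The ligands higher in P4htm-/- ipsilateral than contralateral cortex numbered 4 instead of 7 when every compared array had to be above background, and 4 with the limit at the 99th percentile (6.59). In WT they numbered 5 instead of 7 under each of these settings. At 2-fold they numbered 5 in both genotypes. With a 2-fold threshold, 0 ligands were lower in P4htm-/- than WT ipsilateral cortex, 0 in contralateral cortex, and 0 had a smaller side difference in P4htm-/- than in WT. With the 99th percentile, 0 were lower in contralateral cortex. With values raised to background, the median side difference was 1.17 in P4htm-/- and 1.33 in WT, against 1.38 and 1.35 as deposited. The contralateral median between genotypes was then 0.00. The ipsilateral median between genotypes was -0.22 with all probe sets of a gene averaged. Under that average, 3 ligands were lower in P4htm-/- ipsilateral cortex and 2 had a smaller side difference, Ccl12 and, in place of Ccl6 (-0.26), Ccl9 (-0.86). Over all genes, the 99th percentile lowered the calls from the main counts of 203 (higher ipsilaterally in P4htm-/-), 320 (in WT), 77 and 21 (lower in P4htm-/- ipsilateral and contralateral cortex) and 182 (smaller side difference) to 126, 187, 40, 2 and 79, and a 2-fold threshold lowered them to 75, 106, 5, 2 and 10. The 21 became 71 with the probe set of largest range, and 13 with both arrays above background or with values raised to it. The 182 became 310 with the probe set of largest range and 320 without a filter.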
